A study of Saccharomyces cerevisiae with 10 samples.

Results

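The genes described here are 10 regulators through which budding yeast senses glucose and represses genes in its presence. They were chosen by systematic name: the sensors SNF3 and RGT2, the corepressors MTH1 and STD1, the repressor RGT1, the repressors MIG1, MIG2 and MIG3, and the hexokinases HXK1 and HXK2. They are 10 of 7126 yeast targets in the deposited tables, and all 10 were among the 6390 genes tested. Transcripts were measured by RNA-seq in BY4743, a diploid laboratory strain, growing at mid-log phase in YPD, a rich glucose medium. The 5 groups of 2 replicates were naive diploids, [ESI+] diploids, and homozygous deletions of HOS2, SET3 or SNT1 (hos2Δ, set3Δ, snt1Δ). [ESI+] is a heritable, prion-like state, and Hos2, Set3 and Snt1 belong to the Set3 complex, which removes acetyl groups from histones. The labels do not say how the [ESI+] diploids were obtained, how many clones stand behind a group, or whether the replicates were separate cultures, so p-values reflect just the spread among the libraries at hand.

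Snf3 and Rgt2 are membrane proteins related to glucose transporters that signal when glucose is outside the cell. Their signal leads to degradation of Mth1 and Std1, paralogs that Rgt1 needs to repress hexose transporter genes. Inside the cell, the zinc-finger proteins Mig1, Mig2 and Mig3 repress genes for other carbon sources, Mig1 under control of the Snf1 kinase. Hxk2 is the main hexokinase on glucose and takes part in repression with Mig1, while Hxk1 is its paralog, known to be expressed more when glucose is scarce.

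Sequence upstream of 5 members is shown because these genes are themselves known to be controlled by this network. The sequences hold the letters that Rgt1 and Mig1 are known to prefer. Each is the 300-base stretch with the most matches within 700 bases before the start codon, read from build R64 in the gene's own direction. MTH1, MIG1, MIG2 and MIG3 fell in deletions, and STD1, the paralog of MTH1, did not pass the test in any group. Capitals mark CGGANNA, the Rgt1 motif, and the Mig1 motif, which is GCGGGG or its variants in which the start is GT, CC or CT in place of GC, on either strand.
MTH1, chrIV:1016043-1016342, minus strand: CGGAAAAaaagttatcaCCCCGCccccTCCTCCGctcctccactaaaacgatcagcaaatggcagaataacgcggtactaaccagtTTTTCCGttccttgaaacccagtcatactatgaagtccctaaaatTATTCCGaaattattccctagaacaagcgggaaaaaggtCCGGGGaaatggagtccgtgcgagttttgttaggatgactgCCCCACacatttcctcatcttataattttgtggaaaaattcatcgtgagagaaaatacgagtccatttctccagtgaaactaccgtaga
MIG1, chrVII:433091-433390, minus strand: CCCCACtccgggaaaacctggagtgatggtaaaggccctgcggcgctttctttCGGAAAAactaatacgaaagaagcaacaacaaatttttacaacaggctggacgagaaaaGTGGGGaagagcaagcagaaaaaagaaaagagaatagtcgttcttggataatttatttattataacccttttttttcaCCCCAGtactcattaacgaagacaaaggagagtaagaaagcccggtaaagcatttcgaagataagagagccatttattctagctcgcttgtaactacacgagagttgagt
MIG2, chrVII:95495-95794, plus strand: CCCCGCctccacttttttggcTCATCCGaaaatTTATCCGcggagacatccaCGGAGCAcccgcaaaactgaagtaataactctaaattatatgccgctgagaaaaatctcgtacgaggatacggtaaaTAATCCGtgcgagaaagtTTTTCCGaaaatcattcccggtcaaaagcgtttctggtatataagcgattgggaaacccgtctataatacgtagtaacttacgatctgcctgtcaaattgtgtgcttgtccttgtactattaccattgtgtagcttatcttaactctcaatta
MIG3, chrV:211992-212291, minus strand: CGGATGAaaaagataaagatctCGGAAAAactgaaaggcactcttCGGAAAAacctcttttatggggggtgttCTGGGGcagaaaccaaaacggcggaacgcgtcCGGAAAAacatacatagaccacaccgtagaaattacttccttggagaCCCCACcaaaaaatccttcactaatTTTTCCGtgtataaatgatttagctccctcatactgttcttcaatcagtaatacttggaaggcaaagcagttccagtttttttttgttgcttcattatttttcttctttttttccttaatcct
STD1, chrXV:417682-417981, minus strand: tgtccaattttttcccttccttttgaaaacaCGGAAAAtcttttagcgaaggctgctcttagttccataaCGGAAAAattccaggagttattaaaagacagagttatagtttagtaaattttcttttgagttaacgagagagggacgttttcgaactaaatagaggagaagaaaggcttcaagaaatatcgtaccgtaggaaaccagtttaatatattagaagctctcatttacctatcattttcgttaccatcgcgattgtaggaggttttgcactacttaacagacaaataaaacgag

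Over the whole 700 bases, MTH1 had 4 Rgt1 and 3 Mig1 matches, MIG2 had 5 and 1, MIG3 had 5 and 2, and MIG1 had 2 and 4. STD1 had 2 Rgt1 matches, RGT1 had 3, and neither had a Mig1 match. SNF3 had 2 Mig1 matches and no Rgt1 match, and RGT2 had neither. HXK1 had 2 of each, and HXK2 had 1 Rgt1 and 2 Mig1 matches. Of 6005 upstream regions of that length, 54% held an Rgt1 match and 31.8% a Mig1 match. At least 2 Rgt1 matches stood in 19.3% of them, at least 3 in 5.1%, at least 4 in 1.42% and at least 5 in 0.45%. At least 2 Mig1 matches stood in 6.74%, at least 3 in 1.38% and at least 4 in 0.333%. A match is a run of letters, not a measured binding site, and the MIG1 stretch overlaps the annotated gene YGL034C. Each member has 1 exon and overlaps no other gene of the annotation used, in which YFR052C-A, a target that shares reads with HXK1, was not found. MTH1 (YDR277C) lies at chrIV:1014401-1015702, MIG2 (YGL209W) at chrVII:95858-97006 and HXK1 (YFR053C) at chrVI:253592-255049.

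The libraries held between 8327735 and 80651761 estimated counts, of which ERCC spike-in RNAs took 0.946% to 5.19%. The deleted genes were nearly absent where the labels say so: HOS2 had 3 and 0 counts, SET3 had 2 and 0, and SNT1 had 1 and 4. The 10 haploid-specific markers, which a diploid should hold at low level, summed to 21.1 and 24.2 counts-per-million (CPM, on TMM-scaled library sizes) in naive, 22.3 and 28.2 in [ESI+], 14.0 and 24.8 in hos2Δ, 11.9 and 13.1 in set3Δ and 13.1 and 15.2 in snt1Δ. MF(ALPHA)1, the alpha-factor gene, was at 0 in set3Δ replicate 2 and at 0.163 to 2.73 CPM elsewhere. Single markers differed between replicates in opposite directions, which the sums do not show. In naive replicates 1 and 2, MF(ALPHA)1 stood at 0.733 and 2.73 CPM, STE2 at 4.57 and 1.48, and MFA2 at 1.47 and 0.312. STE3 stood at 0.930 and 0.705 there, the opposite direction to MF(ALPHA)1. In hos2Δ replicates 1 and 2, MF(ALPHA)1 stood at 0.163 and 0.259 CPM (13 and 5 counts), STE2 at 9.23 and 3.42, and MFA2 at 1.69 and 0.207. In [ESI+] replicates 1 and 2, STE2 stood at 5.81 and 4.41 CPM, MFA1 at 0.691 and 0.408, and MFA2 at 0.796 and 0.544. The other markers were all higher in [ESI+] replicate 2, among them MF(ALPHA)1 at 0.541 and 2.09, STE3 at 0.867 and 2.67, and HO at 0.871 and 3.19. The part of these markers in the results was not tested. The median gene silent in other groups stood at 0.334 and 1.59 CPM for each kb of length in the [ESI+] libraries and at 0 to 0.0717 in the others. MIG3, the least abundant of the 10, stood at 5.94 and 6.53 CPM per kb in [ESI+] on that scale. CPM are relative to the other transcripts, and fewer cells with a transcript cannot be told apart from less of it per cell.

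The 4 comparisons with naive cells ask how the network's transcripts stand in [ESI+] and without each Set3 complex subunit. By edgeR's quasi-likelihood test none of the 10 genes was called higher in any of them, and none was higher at an unadjusted p under 0.05 or by DESeq2, while limma on TPM called 1, STD1, higher in [ESI+] (0.86, adjusted p = 0.0430). In hos2Δ and in set3Δ, 6 of 10 fell: MTH1, SNF3, MIG1, MIG2, MIG3 and HXK1. In snt1Δ 3 fell (MTH1, MIG2, MIG3), and in [ESI+] 3 fell (MIG1, MIG2, HXK1). Among all genes tested, this test with Benjamini-Hochberg adjustment at 0.05 called 4.69% lower in hos2Δ, 1.92% in set3Δ, 0.391% in snt1Δ and 14.5% in [ESI+]. It called 2.96%, 0.579%, 0.0626% and 13.9% higher in the same order, and 7.65%, 2.50%, 0.454% and 28.3% in either direction. The median log2 fold change of the 10 genes was -1.0 in hos2Δ, -0.90 in set3Δ, -0.60 in snt1Δ and -0.39 in [ESI+], beside 0.027, 0.0038, -0.0044 and 0.093 over all genes. The 4 comparisons share the naive libraries, so their directions are not independent of each other. With deposited TPM, limma called 2 of the 10 lower in hos2Δ (MTH1 and HXK1), 1 in set3Δ, 2 in snt1Δ (MTH1 and MIG3) and 0 in [ESI+]. In the main edgeR fit STD1, RGT1, RGT2 and HXK2 passed in none of the 4. With 1 of the 4 libraries compared left out, 1 to 5 of the 10 were called in hos2Δ, 0 to 3 in set3Δ, 0 to 4 in snt1Δ and 1 to 3 in [ESI+].

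**Figure D1:**
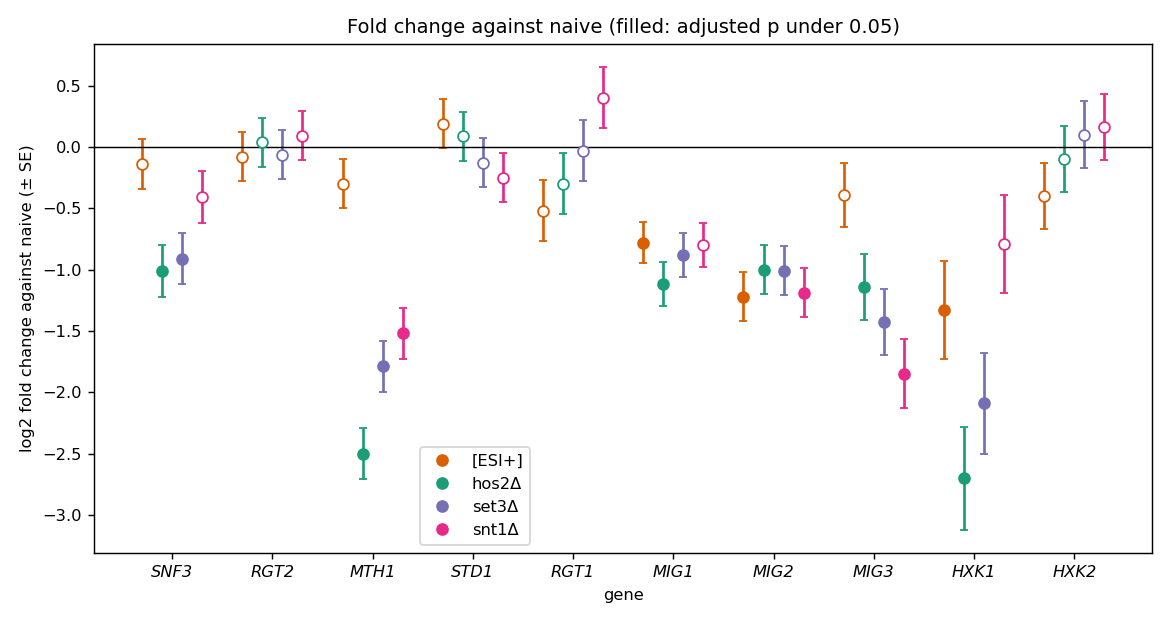
Log2 fold change against naive (y axis, bars are ± 1 SE) of the 10 genes (x axis) in 4 groups, 2 libraries against 2, with filled points past an adjusted p of 0.05. Filled points lie only below 0, MTH1 spreads from -0.30 in [ESI+] to -2.50 in hos2Δ, and RGT2 stays within 0.089 of 0.

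Of the 2 sensors, SNF3 fell in hos2Δ and set3Δ. SNF3, the sensor for low glucose, stood at 16.7 and 16.0 CPM in naive and 14.6 and 15.0 in [ESI+]. It stood at 7.74 and 8.55 CPM in hos2Δ, 7.39 and 10.3 in set3Δ, and 11.4 and 13.2 in snt1Δ. Every library of the other groups lay below both naive libraries, with hos2Δ and set3Δ lowest and overlapping each other. SNF3 fell by 1.01 ± 0.21 on the log2 scale (SE, adjusted p = 0.0168, edgeR's quasi-likelihood test) in hos2Δ and by 0.91 ± 0.21 (adjusted p = 0.0455) in set3Δ. Its fold change was -0.41 ± 0.21 in snt1Δ (adjusted p = 0.584) and -0.14 ± 0.20 in [ESI+] (adjusted p = 0.637). With a trend by gene length removed, edgeR called SNF3 lower in [ESI+] as well (-0.56, adjusted p = 0.0410). The hos2Δ and set3Δ calls were each lost when any 1 of the 4 libraries compared was left out. The values were then from -1.07 to -0.93 in hos2Δ and from -1.14 to -0.67 in set3Δ.

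RGT2, the sensor for high glucose, lay between 10.5 and 14.6 CPM in all 10 libraries, and its largest fold change from naive was 0.089 ± 0.20 in snt1Δ (adjusted p = 0.913). Its 95% interval in hos2Δ ran from -0.39 to 0.47. Per length, the ratio of SNF3 to RGT2 in TPM, the deposited measure scaled by length, was 1.15 and 1.06 in naive and 1.19 and 0.964 in [ESI+]. It was 0.534 and 0.541 in hos2Δ, 0.534 and 0.715 in set3Δ, and 0.667 and 0.923 in snt1Δ. Naive and [ESI+] ratios overlapped, and all 6 deletion libraries had a lower ratio than those 4. The ratios of paralogs were computed after the values were seen and carry no test.

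The corepressor MTH1 fell in every deletion, most in hos2Δ, and did not pass the test in [ESI+]. Its level was 37.8 and 41.5 CPM in naive libraries and 36.6 and 27.8 in [ESI+]. Deletions gave 6.70 and 7.31 CPM in hos2Δ, 11.8 and 11.0 in set3Δ, and 12.1 and 15.5 in snt1Δ. No library of one group overlapped another group's, in the order naive, [ESI+], snt1Δ, set3Δ and hos2Δ, although snt1Δ and set3Δ nearly touched. The fall was 5.67-fold in hos2Δ (log2 -2.50 ± 0.21, adjusted p = 0.000179), 3.46-fold in set3Δ (-1.79 ± 0.21, adjusted p = 0.00148) and 2.87-fold in snt1Δ (-1.52 ± 0.21, adjusted p = 0.00620), by edgeR. The [ESI+] fold change was -0.30 ± 0.20 (adjusted p = 0.274), with a 95% interval from -0.74 to 0.14.

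Direct tests set [ESI+] against each deletion, which share the [ESI+] libraries. MTH1 was 4.61-fold higher in [ESI+] than in hos2Δ (log2 2.2 ± 0.21, adjusted p = 0.000760), 2.81-fold higher than in set3Δ (1.49 ± 0.21, adjusted p = 0.00315) and 2.34-fold higher than in snt1Δ (1.22 ± 0.21, adjusted p = 0.00161), by edgeR's test. All 3 calls held when any 1 of the 4 libraries compared was left out and with TPM. With spike-in sizes the MTH1 values were 2.83, 2.85 and 2.76, and none was called (adjusted p = 0.763, 0.406 and 0.240). Among deletions, MTH1 was higher in snt1Δ than in hos2Δ by 0.98 ± 0.21 (adjusted p = 0.0351), which held without snt1Δ replicate 1 and was lost without any 1 of the other 3 libraries. That MTH1 difference was 0.070 with spike-in sizes (adjusted p = 0.971) and 0.27 with TPM (adjusted p = 0.473). The difference of set3Δ from hos2Δ was 0.71 ± 0.21 with an adjusted p of 1.00. The call against naive in set3Δ was lost without either set3Δ library (values from -1.85 to -1.72), and that in snt1Δ without naive replicate 2 (lowest and highest values without 1 library -1.70 and -1.35).

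STD1, the paralog with the same role, stood at 18.2 and 15.9 CPM in naive, 19.3 and 19.7 in [ESI+], 16.0 and 20.4 in hos2Δ, 16.6 and 14.4 in set3Δ and 15.9 and 12.8 in snt1Δ. All 3 deletion groups overlapped naive. Its fold changes ran from -0.25 ± 0.20 in snt1Δ (adjusted p = 0.755) to 0.19 ± 0.20 in [ESI+] (adjusted p = 0.499). In TPM, MTH1 stood above STD1 in naive, at ratios of 2.13 and 2.69, and in [ESI+], at 1.95 and 1.45. The ratio was 0.430 and 0.368 in hos2Δ, 0.734 and 0.785 in set3Δ, and 0.781 and 1.25 in snt1Δ, so STD1 was the more abundant of the pair in 5 of 6 deletion libraries.

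**Figure D2:**
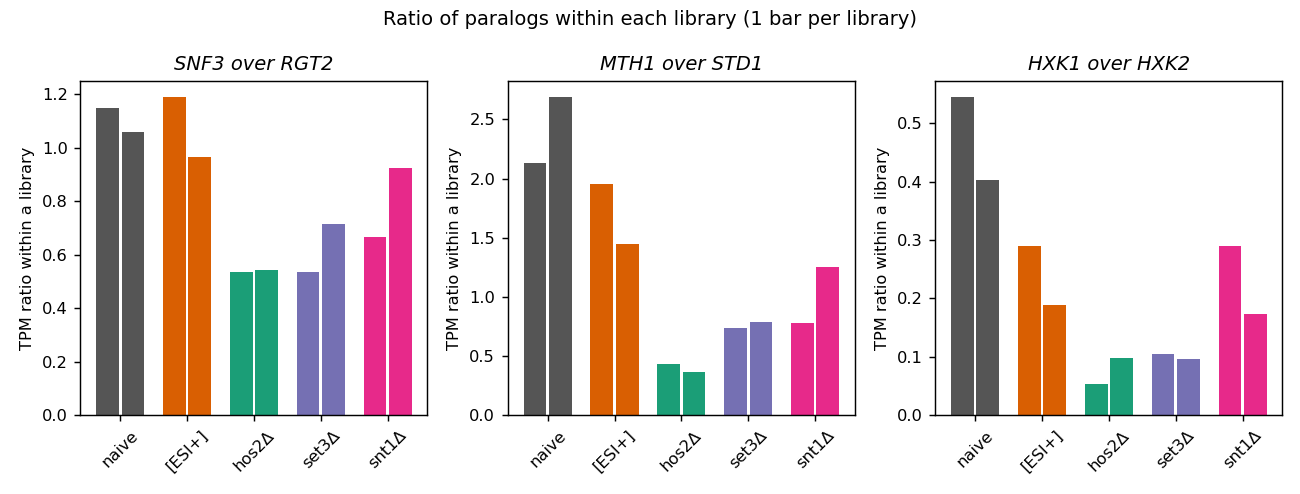
Ratio of deposited TPM between paralogs within each library (y axis), 1 bar per library in pairs by group (x axis), for SNF3 over RGT2, MTH1 over STD1 and HXK1 over HXK2. The MTH1 to STD1 ratio was 1.45 or more in the 4 naive and [ESI+] libraries and 1.25 or less in the 6 deletion libraries.

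RGT1, the DNA-binding repressor that works with Mth1 and Std1, was not called against naive in the main edgeR fit. Other edgeR settings called RGT1 lower in [ESI+]. These were removal of a trend by gene length (-1.06, adjusted p = 0.00998) and a fit of only the 2 groups compared (-0.53, adjusted p = 0.0285). RGT1 stood at 44.8 and 60 CPM in naive, 35.5 and 37.3 in [ESI+], 37.4 and 47.8 in hos2Δ, 53.2 and 49.2 in set3Δ, and 52.9 and 85.3 in snt1Δ. Each deletion overlapped naive, and both [ESI+] libraries lay below every other library. The fold change was -0.52 ± 0.25 in [ESI+] (adjusted p = 0.130) and 0.40 ± 0.25 in snt1Δ (adjusted p = 0.666). In the direct test the log2 fold change of RGT1 in [ESI+] against snt1Δ was -0.92 ± 0.25 (adjusted p = 0.0142, edgeR). The call held without snt1Δ replicate 1 and was lost without any 1 of the other 3 libraries, with values from -1.29 to -0.60. With deposited TPM the direction turned: the [ESI+] libraries had 10.6 and 12.5 TPM and the snt1Δ libraries 9.42 and 11.5, a difference of 0.13 (adjusted p = 0.698, limma).

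The 3 MIG genes all fell in hos2Δ and set3Δ by edgeR. MIG1, the main glucose repressor, was at 32.2 and 36.8 CPM in naive and 21.0 and 19.3 in [ESI+]. Deletions had 15.1 and 16.6 CPM in hos2Δ, 18 and 19.6 in set3Δ, and 20.1 and 19.6 in snt1Δ. All 8 libraries of these groups lay below both naive libraries, and [ESI+] overlapped set3Δ and snt1Δ. MIG1 fell by 1.12 ± 0.18 in hos2Δ (adjusted p = 0.00523), by 0.88 ± 0.18 in set3Δ (adjusted p = 0.0266) and by 0.78 ± 0.17 in [ESI+] (adjusted p = 0.00871), by edgeR's test. In snt1Δ the MIG1 fold change was -0.80 ± 0.18 with an adjusted p of 0.106 by edgeR, and it was called there by DESeq2 (-0.76, adjusted p = 0.0193), with a filter at a mean of 10 CPM (adjusted p = 0.0310) and without snt1Δ replicate 1 (adjusted p = 0.0416). The direct tests of MIG1 between [ESI+] and each deletion did not pass. The hos2Δ call was lost without naive replicate 2 or hos2Δ replicate 1 and the set3Δ call without any 1 of its 4 libraries. The [ESI+] call was lost without naive replicate 2 (adjusted p = 0.0610) or [ESI+] replicate 2 (adjusted p = 0.104).

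MIG2, which shares targets with MIG1, was called by edgeR in all 4 comparisons. MIG2 had 25.5 and 36.1 CPM in naive, 13.4 and 12.9 in [ESI+], 14.6 and 16.1 in hos2Δ, 15.1 and 15.3 in set3Δ, and 12.9 and 14.1 in snt1Δ. The naive replicates lay far apart, and all 8 other libraries lay below the lower of them. MIG2 fell by 1.22 ± 0.20 in [ESI+] (adjusted p = 0.00191), by 1.00 ± 0.20 in hos2Δ (adjusted p = 0.0144), by 1.01 ± 0.20 in set3Δ (adjusted p = 0.0260) and by 1.19 ± 0.20 in snt1Δ (adjusted p = 0.0248), by edgeR. Leaving out naive replicate 2, the higher one, ended the calls in the 3 deletions and not in [ESI+], where the value was then -1.03 (adjusted p = 0.0191). The hos2Δ and set3Δ calls were also lost without either replicate of the deletion.

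MIG3, a related repressor of low abundance, fell in the 3 deletions. It had 25 to 603 counts a library, or 7.12 and 9.74 CPM in naive and 5.96 and 6.84 in [ESI+]. Its level was 3.50 and 4.15 CPM in hos2Δ, 3.28 and 2.84 in set3Δ, and 2.16 and 2.50 in snt1Δ. No 2 groups overlapped, and the order of the deletions was the reverse of that of MTH1, with snt1Δ lowest. MIG3 fell by 1.14 ± 0.27 in hos2Δ (adjusted p = 0.0269), by 1.43 ± 0.27 in set3Δ (adjusted p = 0.0231) and by 1.85 ± 0.28 in snt1Δ (adjusted p = 0.0134), by edgeR, and the deletions did not pass a test against each other. In [ESI+] the fold change was -0.39 ± 0.26 (adjusted p = 0.272). MIG3 was higher in [ESI+] than in set3Δ by 1.04 ± 0.27 (adjusted p = 0.0263) and than in snt1Δ by 1.46 ± 0.28 (adjusted p = 0.00282). Without naive replicate 2 the 3 calls against naive were lost, as were those in hos2Δ and set3Δ without either replicate of the deletion. The direct call against snt1Δ held without any 1 library, and that against set3Δ was lost without any 1 of its 4.

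**Figure D3:**
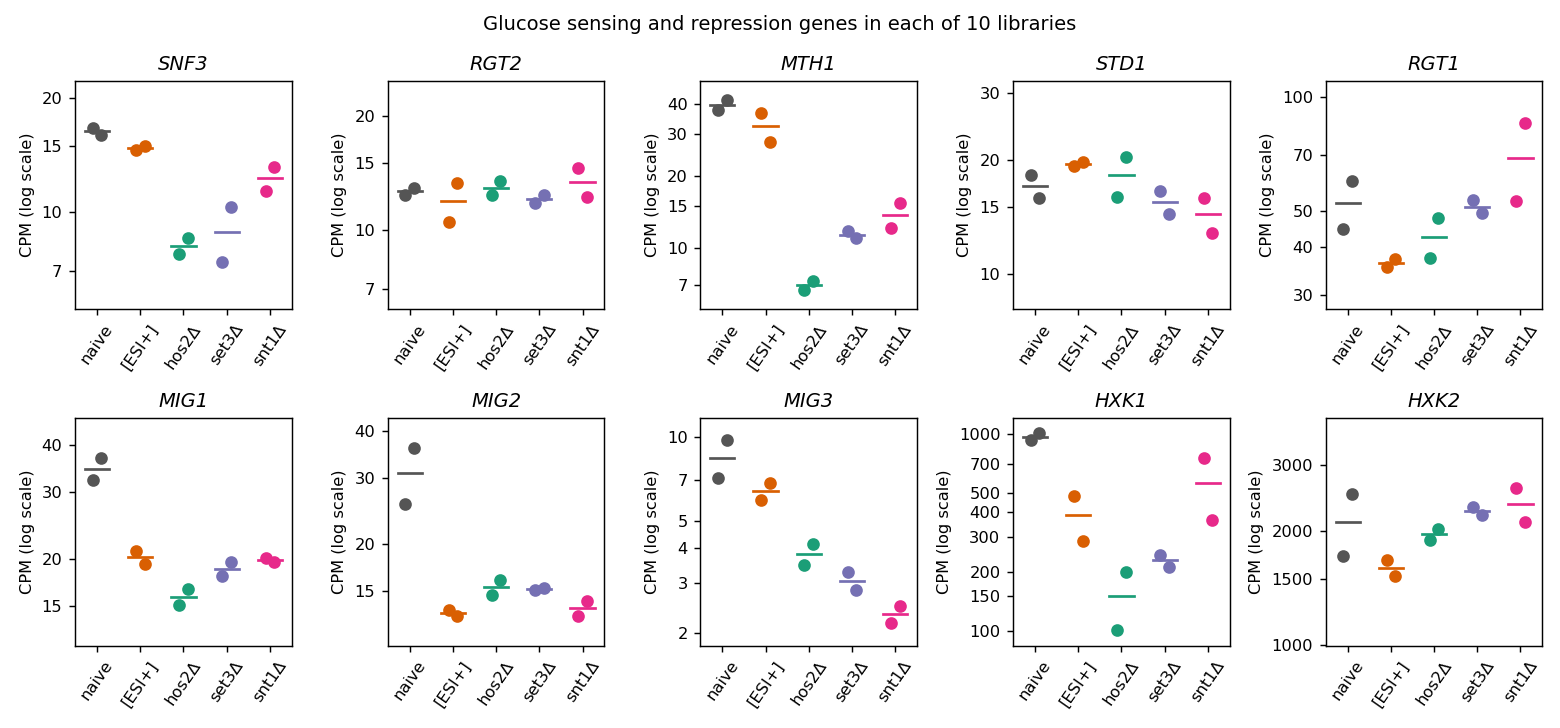
CPM (y axis, log scale) of each of the 10 genes in every library by group (x axis), with a line at the group mean of 2 libraries. RGT2 lay between 10.5 and 14.6 CPM throughout, while MTH1 ranged from 6.70 CPM in hos2Δ to 41.5 in naive and all 8 other libraries of MIG1 and MIG2 lay below both naive ones.

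HXK1, the hexokinase gene known to be repressed by glucose, fell in hos2Δ, set3Δ and [ESI+] with a wide spread between replicates. It had 934 and 1008 CPM in naive, 485 and 287 in [ESI+] and 756 and 367 in snt1Δ. Levels in the other deletions were 101 and 198 CPM in hos2Δ and 244 and 212 in set3Δ. Every library lay below both naive ones, and [ESI+] overlapped snt1Δ. HXK1 fell 6.52-fold in hos2Δ (log2 -2.70 ± 0.42, adjusted p = 0.00589), 4.26-fold in set3Δ (-2.09 ± 0.41, adjusted p = 0.0266) and 2.52-fold in [ESI+] (-1.33 ± 0.40, adjusted p = 0.0311), by edgeR. In snt1Δ the HXK1 fold change was -0.79 ± 0.40 (adjusted p = 0.589), with -1.40 without snt1Δ replicate 1 and -0.35 without snt1Δ replicate 2, and HXK1 was higher in snt1Δ than in hos2Δ by 1.91 ± 0.41 (adjusted p = 0.0367), a call lost without either hos2Δ library, with spike-in sizes (1.21, adjusted p = 0.738) and with TPM (1.25, adjusted p = 0.103). Against naive, the hos2Δ call was lost without hos2Δ replicate 1 and the set3Δ call without any 1 of its 4 libraries. The [ESI+] call held without [ESI+] replicate 1 and was lost without any 1 of the other 3 libraries compared (adjusted p from 0.0648 to 0.236). HXK1 shared reads with the target YFR052C-A, which took 1.53% to 3.89% of their sum, and the [ESI+] value with the 2 summed was -1.34 (adjusted p = 0.0289).

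HXK2, the most abundant of the 10 per length at 741 to 1384 TPM, had 1720 and 2513 CPM in naive, 1681 and 1529 in [ESI+], 1901 and 2035 in hos2Δ, 2319 and 2211 in set3Δ, and 2611 and 2122 in snt1Δ. Both [ESI+] libraries were below all others, and each deletion overlapped naive. Its fold changes ran from -0.40 ± 0.27 in [ESI+] (adjusted p = 0.283) to 0.16 ± 0.27 in snt1Δ (adjusted p = 0.881). The TPM ratio of HXK1 to HXK2 was 0.545 and 0.402 in naive, 0.289 and 0.188 in [ESI+], 0.0531 and 0.0973 in hos2Δ, 0.105 and 0.0963 in set3Δ, and 0.290 and 0.173 in snt1Δ. The naive ratios were the highest, and hos2Δ and set3Δ overlapped at the bottom.

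The [ESI+] calls depended on the scale, as did many of those in the deletions. Spike-ins took 0.946% and 5.19% of counts in the [ESI+] replicates and 1.43% and 3.31% in naive, so spike-in sizes spread widely within a group. Over all genes, the median in [ESI+] lay 0.80 above naive on the log2 scale when libraries were scaled by their spike-ins, and 0.74 above with deposited TPM. On those scales MIG1 was at 0.040 (adjusted p = 0.990, edgeR) and -0.046 (adjusted p = 0.906, limma), MIG2 at -0.35 and -0.44, and HXK1 at -0.36 and -0.65, and none of the 3 was called. MTH1 was then at 0.58 and 0.41. Relative to the median gene, MIG1 was at -0.76 and -0.79 and MIG2 at -1.14 and -1.18. With the library sizes used here MIG1 was at -0.87 and MIG2 at -1.32 by that measure. So both were lower in [ESI+] than the median gene on each scale, a difference that carries no test. TPM is itself a share of all targets, so neither a fall in that share nor a fall in amount was shown by a test. Spike-in sizes also ended every call of the 10 genes in the deletions, where MTH1 lay at -2.25 in hos2Δ, -2.27 in set3Δ and -2.18 in snt1Δ. With TPM, limma kept only the MTH1 and HXK1 calls in hos2Δ. There SNF3 was at -0.52 (adjusted p = 0.337) and MIG1 at -0.73 (adjusted p = 0.204). MIG2 was at -0.60 (adjusted p = 0.255) and MIG3 at -0.63 (adjusted p = 0.237). In snt1Δ limma kept MTH1 and MIG3, with MIG2 at -1.35 (adjusted p = 0.0697). In set3Δ it called 1 of the 10.

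**Figure D4:**
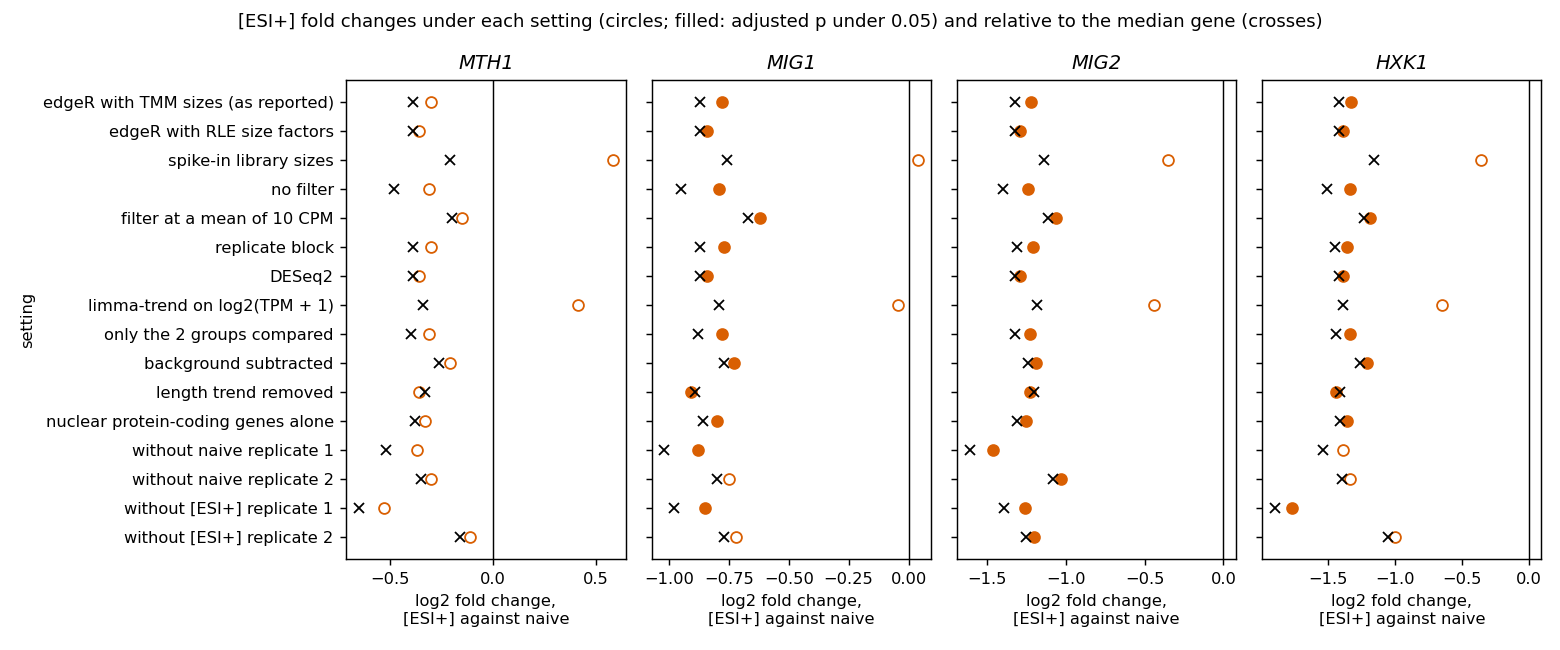
Log2 fold change of [ESI+] against naive (x axis) for MTH1, MIG1, MIG2 and HXK1 under each processing setting (y axis), as circles filled where the adjusted p is under 0.05 and as crosses after subtracting the median of all genes. The circles of spike-in sizes and TPM stand to the right of the others, at 0.040 and -0.046 for MIG1, while the MIG1 crosses stay between -1.02 and -0.67.

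In the direct tests of [ESI+], 2 of the 10 genes were called against hos2Δ (MTH1 and SNF3, the latter higher in [ESI+] by 0.87 ± 0.20, adjusted p = 0.0273), where 7.53% of all genes were called. Against set3Δ 3 were called (MTH1, MIG3 and SNF3, higher by 0.78 ± 0.21, adjusted p = 0.0298), beside 16.2% of all genes. The hos2Δ call of SNF3 was lost without any 1 of its 4 libraries, and the set3Δ call held only without set3Δ replicate 2. Against snt1Δ 3 were called (MTH1 and MIG3 higher, RGT1 lower in [ESI+]), beside 37.0% of all genes, a share above that of the 10. With TPM, where the median of all genes lay 1.00 above snt1Δ, limma called 6 higher there (MTH1, MIG3, STD1, SNF3, MIG1 and MIG2) and 0 lower. On that scale limma called most of the genes tested in this comparison, as counted under the dependence on processing, so 6 of 10 does not stand out. Spike-in sizes ended the direct calls of SNF3, MIG3 and RGT1, and TPM those of SNF3 against hos2Δ and RGT1. Between snt1Δ and hos2Δ 2 were called (MTH1 and HXK1), beside 3.16%. No member was called by edgeR between snt1Δ and set3Δ or between set3Δ and hos2Δ, where 0.188% and 0.0313% of genes were. At an unadjusted p under 0.05 these had 2 and 1 members, DESeq2 called 1 and 0, and limma on TPM called 0 in both.

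The signalling genes around these regulators gave few calls in the deletions, where few of all genes were called. Over all genes edgeR called 7.65% in hos2Δ, 2.50% in set3Δ, 0.454% in snt1Δ and 28.3% in [ESI+], in either direction. Counts of 0 in lists this short are near the shares in the deletions. Of 8 genes that carry the sensors' signal or assist Rgt1 (casein kinases Yck1 and Yck2, the ubiquitin ligase of Grr1, and the corepressor of Tup1 and Cyc8), edgeR called 0 in hos2Δ, set3Δ and snt1Δ, with 2, 2 and 0 at an unadjusted p under 0.05. DESeq2 called 1, 0 and 0, and limma called 0 in each. In [ESI+] 2 rose and 2 fell: GRR1, the F-box subunit that targets Mth1, rose by 0.73 ± 0.19 (adjusted p = 0.0168), and SKP1, its partner in the ligase, fell by 1.37 ± 0.23 (adjusted p = 0.00222). TUP1 fell by 1.08 ± 0.33 (adjusted p = 0.0291). GRR1 and SKP1 share reads with other targets, as do GPR1, REG2 and GLK1, named below, so their values are uncertain one by one. Of 15 genes of the cAMP and protein kinase A pathway, edgeR called 0 in each deletion (3, 2 and 0 at an unadjusted p under 0.05, none by DESeq2 or limma), and in [ESI+] 5 rose and 2 fell. IRA1 and IRA2, which turn Ras off, rose by 1.00 ± 0.20 (adjusted p = 0.00481) and 0.81 ± 0.19 (adjusted p = 0.0109), and GPR1, a glucose receptor, rose by 0.83 ± 0.19 (adjusted p = 0.0101). On the TPM scale the median of all genes was 0.74 higher in [ESI+], and limma called none of the genes of this or the other lists lower. It called 2 of the 8 signalling genes, 8 of these 15 and 4 of the 11 Snf1 pathway genes higher. Also higher were 1 hexose transporter, 3 glucose-repressed genes and 1 of 7 other sugar regulators. Many of all genes were called higher on that scale too, as counted under the dependence on processing.

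Of 11 genes of the Snf1 kinase pathway, which opposes Mig1, 1 rose and 3 fell in [ESI+], 1 rose and 1 fell in hos2Δ, 1 fell in set3Δ and 0 passed in snt1Δ (3 at an unadjusted p under 0.05, 1 by DESeq2). Among all genes, 28.3%, 7.65%, 2.50% and 0.454% were called in either direction in the same order. REG2, a regulatory subunit of the phosphatase Glc7, had 6.74 and 5.84 CPM in naive, 1.63 and 2.12 in hos2Δ and 1.68 and 1.82 in set3Δ. It fell by 1.77 ± 0.34 (adjusted p = 0.0128) and 1.86 ± 0.35 (adjusted p = 0.0224), and in [ESI+] by 1.06 ± 0.33 (adjusted p = 0.0315). TOS3, a kinase that activates Snf1, rose by 0.86 ± 0.18 in hos2Δ (adjusted p = 0.0179). GLC7 rose in [ESI+] by 1.21 ± 0.27 (adjusted p = 0.00791).

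Hexose transporter genes are the known targets of Rgt1. Of 17 listed, 15 were tested, and edgeR's calls against naive were as follows: 6 fell in hos2Δ, 4 in set3Δ and 1 in snt1Δ, with none higher (0 also at an unadjusted p under 0.05, by DESeq2 and by limma), while in [ESI+] 1 rose and 1 fell. Their median fold change was -0.92, -1.09, -0.80 and -0.067 in this order. Over all genes 4.69%, 1.92%, 0.391% and 14.5% were called lower in the same order. HXT4, a transporter gene repressed through Rgt1, had 458 and 510 CPM in naive, 405 and 237 in [ESI+], 39.0 and 41.6 in hos2Δ, 84.9 and 67.4 in set3Δ and 274 and 174 in snt1Δ. HXT4 fell by 2.67 ± 0.32 in set3Δ (adjusted p = 0.00148) and was higher in snt1Δ than in hos2Δ by 2.48 ± 0.31 (adjusted p = 0.00414). HXT1, the low-affinity transporter induced at high glucose, had 134 and 193 CPM in naive and 27.4 and 43.0 in snt1Δ, a fall of 2.22 ± 0.27 (adjusted p = 0.00262), and was lower in snt1Δ than in hos2Δ (-1.30 ± 0.26, adjusted p = 0.0327), opposite to HXT4. Many HXT genes share reads with each other, so their values are uncertain one by one.

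Of 15 glucose-repressed genes, which include genes for galactose, sucrose and non-sugar carbon use, 3 fell in hos2Δ, 1 in set3Δ and 0 in snt1Δ, with 0 higher in these 3 by edgeR. Over all genes 4.69%, 1.92% and 0.391% were called lower in that order. At an unadjusted p under 0.05, snt1Δ had 1 higher and 2 lower, and neither DESeq2 nor limma called any there. DESeq2 called 6 lower in hos2Δ and 1 in set3Δ, and limma on TPM called 0 in both. GAL4, the activator of galactose genes, fell by 0.74 ± 0.20 in hos2Δ (adjusted p = 0.0468) and 0.97 ± 0.21 in set3Δ (adjusted p = 0.0349). HAP4, which activates respiratory genes, fell by 0.95 ± 0.26 (adjusted p = 0.0470) and ACS1, an acetyl-CoA synthetase gene, by 0.99 ± 0.26 (adjusted p = 0.0421), both in hos2Δ. In [ESI+] 2 rose and 1 fell; SIP4, an activator of gluconeogenic genes, had 1.22 and 3.70 CPM there and 0.384 and 0.312 in naive (2.79 ± 0.77, adjusted p = 0.0203). Genes silent elsewhere also read higher in these libraries, and the part of that in the SIP4 value was not tested.

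Of the other 2 hexose kinase genes, EMI2, a paralog of GLK1, fell by 1.71 ± 0.28 in hos2Δ (adjusted p = 0.00589) and 1.15 ± 0.27 in set3Δ (adjusted p = 0.0495). GLK1, glucokinase, had 1615 and 2458 CPM in naive, 803 and 905 in [ESI+] and 505 and 947 in hos2Δ, and fell by 1.25 ± 0.39 (adjusted p = 0.0329) and 1.49 ± 0.39 (adjusted p = 0.0419). Of 7 other regulators of sugar genes, 1 fell in each of [ESI+], hos2Δ and set3Δ and 0 passed in snt1Δ (1 at an unadjusted p under 0.05, 1 by DESeq2, 0 by limma). ZNF1, a zinc-cluster regulator of carbon metabolism, was the one in hos2Δ and set3Δ. Over all genes 14.5% were called lower in [ESI+], 4.69% in hos2Δ and 1.92% in set3Δ.

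Likeness was measured as the root mean square difference between log2(CPM + 1) profiles over the 10 libraries, each centred on its mean, among 6389 other genes. Closest to MTH1 were ZNF1 (0.175), RGI1 (0.202), a gene of respiratory growth, and YER067C-A (0.264). RGI1 and YER067C-A both share reads with other targets, so their values are uncertain one by one. ZNF1 had 7.75 and 8.10 CPM in naive, 6.35 and 6.25 in [ESI+], 1.16 and 1.04 in hos2Δ, 1.67 and 2.27 in set3Δ and 2.38 and 3.55 in snt1Δ, the same order of groups as MTH1. MIG2 and MIG1 were near each other, with MIG1 the third closest gene to MIG2 (0.219) and NIT1, a nitrilase gene, the closest to both (0.175 to MIG2 and 0.123 to MIG1). Closest to SNF3 was REC114 (0.114), a meiotic recombination gene, to MIG3 YIR042C (0.178) and to HXK1 ARO10 (0.313), a decarboxylase gene of amino acid breakdown. These are the smallest of many distances and carry no test.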

How the data were processed

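RNA-seq libraries were quantified by the submitters with kallisto 0.44 against build R64, per the submitters' processing notes. The deposited expected counts (estimated counts, not normalized) and the deposited TPM (scaled over all targets, spike-ins included) are named per the file headers. Whether strand was kept is not given in the sources used here. Of 7218 targets, 92 ERCC RNAs were set aside. Expected counts were rounded, genes kept with filterByExpr, and edgeR 4.0.16 (R 4.3.3, TMM sizes, robust quasi-likelihood, 1 coefficient per group over 10 libraries) gave 10 two-sided comparisons, adjusted by Benjamini-Hochberg over 6390 genes. SEs are the fold change over the square root of F. Alternatives were DESeq2 1.42.0, RLE factors, spike-in sizes, limma 3.58.1 on log2(TPM + 1), other filters, only the groups compared, background subtraction, removal of a length trend, a replicate block and leaving out each library. Nuclear protein-coding genes alone, and HXK1 with YFR052C-A, were added after seeing the data. The fit was also run on simulated counts with known changes put into a set of genes, and the share recovered is not given here. Those counts held no shift of the median gene, so they cannot test calls that depend on the scale.

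The 10 genes, the lists and the tests were chosen with earlier results of these data known. The text names all 10 genes, up to 3 called genes per other list and comparison by smallest p (not all are printed), and for genes called against naive the 3 with the nearest profile; direct values of HXT4 and HXT1 and the ratios of paralogs were chosen after seeing values. Motifs were searched in the R64 genome.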

Additional observations from a re-analysis of the deposited data

How the results depend on the processing

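Depth was 8327735 in set3Δ replicate 2, and 2 libraries a group limit every call. Of 1094 values of single genes under settings that kept all libraries, 1018 stayed uncalled or stayed called in the same direction, 50 were no longer called, 22 became called and 4 turned. Those 4 were MIG1 in [ESI+] against naive with spike-in sizes (0.040), RGT1 in [ESI+] against snt1Δ with spike-in sizes (0.50) and TPM (0.13), and MIG2 in that comparison with TPM (0.91). Values uncalled in the main fit had no call to lose and are among the 1018, so that number does not measure how often a call held. Spike-in sizes and TPM shift the median of all genes, and spike-in shares also differ between replicates. With spike-in sizes MTH1 in hos2Δ against naive stood at -2.50 relative to the median gene, beside -2.53 in the main fit, and was not called. The cause of the changes was not tested.

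Counts of all genes called in [ESI+], hos2Δ, set3Δ and snt1Δ against naive were 1810, 489, 160 and 29. In [ESI+] against hos2Δ, set3Δ and snt1Δ they were 481, 1032 and 2363, and in snt1Δ against hos2Δ, snt1Δ against set3Δ and set3Δ against hos2Δ 202, 12 and 2. Counts that moved by over 1.5 times follow. DESeq2 called 745 in hos2Δ, 387 in set3Δ (141 higher, beside 37 of 160) and 99 in snt1Δ (41 higher, beside 4 of 29), 874 in [ESI+] against hos2Δ, and 684, 246 and 7 between deletions in the order above. Spike-in sizes gave 32, 5, 3 (2 higher) and 3 (0 higher) against naive with 0 members called in each, 34, 48 and 64 for [ESI+] against deletions, and 5 and 4 for snt1Δ against hos2Δ and set3Δ. Limma on TPM gave 2837 in [ESI+] (2652 higher, beside 886 of 1810), 142 in hos2Δ (75 higher, beside 189 of 489), 49 in set3Δ and 19 in snt1Δ, with 1, 2, 1 and 2 members, then 291, 1604 and 4205 for [ESI+] against deletions, 85 for snt1Δ against hos2Δ and 1 for set3Δ against hos2Δ. Fitting only the 2 groups compared gave 555 in set3Δ, 6 in snt1Δ with 0 members, 2018, 2352 and 1375 for [ESI+] against deletions, and 1, 3 and 5 between deletions. A filter at a mean of 10 CPM gave 378, 30 and 0 between deletions. Removing the length trend gave 5 members in [ESI+] (MIG1, MIG2, HXK1, RGT1 and SNF3). It gave 325 genes in hos2Δ and 116 in snt1Δ against hos2Δ, and subtracting background gave 684 in [ESI+] against set3Δ. RLE factors, no filter and nuclear genes alone moved no count by that much.

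Without 1 library, counts ran from 275 to 1619 in [ESI+] (members 1 to 3), 26 to 355 in hos2Δ (1 to 5), 7 to 54 in set3Δ (0 to 3) and 18 to 320 in snt1Δ (0 to 4). They ran from 40 to 248, 50 to 399 and 716 to 2774 for [ESI+] against deletions, and from 5 to 1264, 2 to 727 and 2 to 2 between deletions.

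The replicate numbers mark no shared batch in the labels, and deviations of same-numbered libraries correlated above 0.1 in 7 of 10 group pairs (-0.0375 to 0.498) but not in the others, and pairing was to be taken only if all 10 passed. With the number as a replicate block, counts were 848 in hos2Δ, 403 in set3Δ, 59 in snt1Δ, 977 and 1660 in [ESI+] against hos2Δ and set3Δ, and 701, 159 and 5 between deletions. Of the 10 genes the block added 2 calls, MIG1 in snt1Δ against naive (-0.79, adjusted p = 0.0444) and RGT1 in snt1Δ against hos2Δ (0.68, adjusted p = 0.0458), and ended none.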
